A study of Homo sapiens with 4 samples.

Results

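RANBP1 and 9 other genes of the Ran transport cycle (RAN, RCC1, RANGAP1, RANBP2, XPO1, KPNB1, KPNA2, CSE1L and NUTF2) were followed in gastric cancer cells treated with the peptide GLUP. The 10 genes were taken by symbol, after the Ensembl identifiers of the expression table had been matched to gene names, from 62443 genes in all. RANBP1 was chosen from its values in the comparison reported here, so its levels are described without a test, and the question for the 9 others was whether they followed it. All 10 were found, and 9 reached a mean of 1 FPKM (fragments per kilobase of transcript, scaled to a fixed number of mapped fragments per library) and entered the fit over 7588 genes, whereas RANBP2 did not.

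RNA of the HGC-27 line, established from a human gastric cancer, was sequenced in 2 libraries from cells given 10 μg/ml GLUP (the GLUP group) and 2 from control cells (the control group). GLUP is a macrocyclic peptide glue built on the part of VGLL4 that binds TEAD4, the DNA-binding factor of the Hippo pathway. The study's text gives the treatment as 12 h in one place and 48 h in another, and the control cells received the peptide's stocking buffer according to the methods but no treatment according to the labels. Both groups come from the same line. The methods speak of biological replicates, while the labels do not say whether libraries of a group came from separate cultures, so the tests measure the spread between these libraries, whatever its source.

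Ran is a small GTPase that sets the direction of transport through the nuclear pore. RCC1, bound to chromatin, loads Ran with GTP in the nucleus, and RANGAP1, helped by RANBP1 and RANBP2, makes Ran hydrolyse that GTP in the cytoplasm. Nuclear RanGTP releases cargo from importins and loads it onto exportins, and NUTF2 carries RanGDP back into the nucleus. The same gradient directs spindle assembly in mitosis, and RANBP1, RAN and several karyopherin genes are abundant in proliferating cells.

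RANBP1 was lower with GLUP, and the other members divided between lower and higher group means. The mean of RANBP1 was 6.92-fold lower, that of NUTF2, the import carrier of Ran, was 3.14-fold higher, and the exchange factor RCC1 and the GTPase activator RANGAP1 had higher group means. RAN, XPO1 and CSE1L had lower group means, 1.80-fold, 1.91-fold and 1.77-fold. None of the 8 other members tested was called by limma (Benjamini-Hochberg adjusted p under 0.05 together with a change of over 2-fold), a rule that 0.0264% of all genes tested met (2 of 7588). At an unadjusted p under 0.05 and the same fold change, NUTF2 was the single other member to pass, on the higher side, where 4.67% of all genes tested passed, against 14.5% on the lower side.

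The libraries themselves set limits on these values. FPKM summed to between 909735 and 949919 per library, and since the sequencing depth is unknown the counting error of a value could not be worked out. Across the genes tested, the GLUP libraries correlated at r = 0.986 and the control libraries at r = 0.933 on the log2(FPKM + 1) scale, so the control pair was the more spread. The median log2 fold change (GLUP over control, on the log2(FPKM + 1) scale, which understates the change of low genes) of all genes tested was -0.36, and each fold change below is also given relative to it. Fold changes moved with the GC content of the longest transcript (Spearman rho 0.577 across 7570 genes, which share the libraries and are not independent replicates). The control replicates differed along GC content as well, with a rho of -0.424 for replicate 2 minus replicate 1. The 3 mesenchymal markers summed to between 294.0 and 390.5 FPKM, nearly all of it VIM (293.3 to 387.2 FPKM). FN1 stood at 0.655 to 3.25 FPKM and CDH2 at no more than 0.0508 FPKM. The 5 epithelial markers summed to between 2.97 and 5.87 FPKM. Of 7 gastric mucosa markers, 6 (ATP4A, GKN1, MUC6, PGC, TFF1 and TFF2) were listed at 0 in all 4 libraries, so the gastric origin given by the label is not visible in these genes. Markers of blood cells summed to at most 1.52 FPKM, with CD3E listed at 0 throughout. Of the endothelial markers, PECAM1 was not found by symbol, and VWF stood at no more than 0.0045 FPKM. The 4 fibroblast markers, led by DCN, summed to between 27.3 and 45.4 FPKM. The 3 proliferation markers (MKI67, PCNA and TOP2A) summed to 90.6 and 89.1 FPKM in the controls and to 70.1 and 71.2 FPKM with GLUP. Most of each sum was PCNA, at 74.3 and 64.6 FPKM in the controls and 59.1 and 62.2 FPKM with GLUP. TOP2A stood at 14.4 and 21.6 FPKM against 9.47 and 7.72 FPKM, and MKI67 at 1.88 and 2.96 FPKM against 1.54 and 1.29 FPKM. These sums are not set against the lower median of all genes, and the part of proliferation in the results below was not tested. In bulk RNA, fewer cells expressing a gene and less RNA per cell cannot be told apart.

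**Figure D1:**
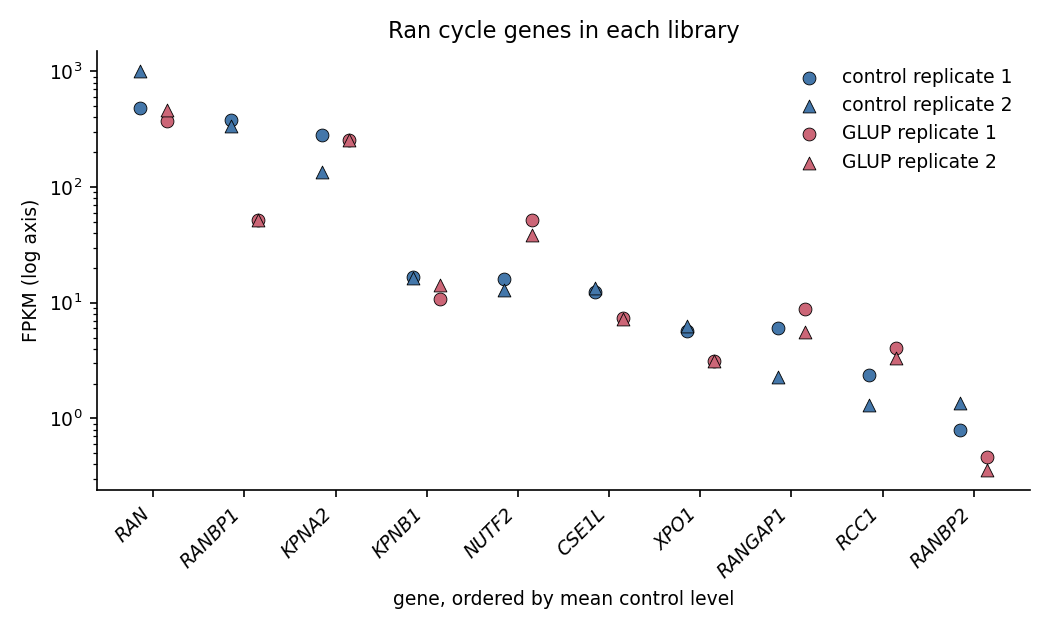
FPKM of the 10 Ran cycle genes in each of the 4 libraries (log axis), ordered by mean control level, with circles for replicate 1 and triangles for replicate 2 of the control (blue) and GLUP (red) groups. The GLUP libraries lie near 52 FPKM for RANBP1, far under its control values of 340.2 and 377.6, whereas the RAN control libraries lie at 480.5 and 1014 and the RANGAP1 and KPNA2 groups overlap.

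RANBP1 (ENSG00000099901, GRCh37 chr22:20103461-20114878, plus strand) encodes the soluble cytoplasmic protein that binds RanGTP and helps RANGAP1 strip it from transport receptors. RANBP1 stood at 377.6 and 340.2 FPKM in the controls and at 51.7 and 52.1 FPKM with GLUP. The 4 libraries thus split into a high control pair and a low GLUP pair, and the GLUP pair differed from each other by far less than the control pair did. The group means were 358.9 ± 26.4 FPKM and 51.9 ± 0.264 FPKM (SD, n = 2 each), a log2 fold change of -2.77, or -2.41 relative to the median of all genes. As a description of the gene that was chosen, 9 of the 7588 genes tested had a log2 fold change at or below that of RANBP1 (0.119%), RANBP1 included, and of the 607 genes averaging 100 FPKM or more it was the only one. Its transcript is GC-rich (55.9%, against a median of 46.5% over all genes tested), and the quintile of genes with the highest GC content had a median log2 fold change of 0.44, so RANBP1 lay opposite to its GC class. In that quintile, 0.132% of genes had a log2 fold change at or below its own.

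Of the listed neighbours of RANBP1 on chromosome 22, 2 were tested, and neither shared its direction. TRMT2A, which encodes a tRNA methyltransferase, starts on the opposite strand at position 20104915, and its gene body overlaps that of RANBP1 (start site at 20103461) by 1455 bases. TRMT2A stood at 1.67 and 0.651 FPKM in the controls and at 3.08 and 3.29 FPKM with GLUP, so both GLUP libraries lay above both controls where RANBP1 lay below. Its log2 fold change was 0.99 (SE 0.32, 95% interval 0.22 to 1.77), which missed the threshold in limma with Benjamini-Hochberg adjustment (adjusted p = 0.115). The TRMT2A transcript has 62.3% GC, in the quintile with the highest GC content, where 47.3% of genes lay above both controls. Whether the counting used the strand is not given in the sources used here, so reads in the overlap cannot be assigned to one gene or the other. CDC45, a replication factor encoded at 19466980-19508135, stood at 5.45 and 2.91 FPKM in the controls against 5.86 and 4.91 FPKM with GLUP. Its groups overlapped, with a log2 fold change of 0.34 (adjusted p = 0.505 in limma with Benjamini-Hochberg adjustment). DGCR8 and ZDHHC8 were under the minimum mean and were not tested. The median log2 fold change of TRMT2A and CDC45 was 1.02 relative to all genes, and 0.40 with the GC trend removed. The processed pseudogene RANBP1P1, whose reads could be confused with those of RANBP1, stood at 0.784 and 0.897 FPKM in the controls and at 0.248 and 0.0167 FPKM with GLUP, far under RANBP1 in every library.

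RAN (ENSG00000132341, GRCh37 chr12:131356582-131362223, plus strand), the GTPase itself, was the most abundant member in both groups. RAN stood at 480.5 and 1014 FPKM in the controls and at 371.1 and 460.2 FPKM with GLUP. Both GLUP libraries were below both controls, but control replicate 2 was 2.11-fold above control replicate 1, and replicate 1 was close to the higher GLUP library. The log2 fold change was -0.76 (SE 0.44, 95% interval -1.83 to 0.32, -0.40 relative to all genes), and limma with Benjamini-Hochberg adjustment gave an adjusted p of 0.263. The control pair decided the size, which depended on the control library kept. Leaving out control replicate 2 gave -0.22 (adjusted p = 0.468 in limma) and leaving out control replicate 1 gave -1.29 (0.00747), while leaving out a GLUP library gave -0.60 and -0.91 (0.733 and 0.603). A fit without a control rests on the spread of the GLUP pair alone, and such fits called 2710 genes of 7588 (without control replicate 1) and 1020 (without control replicate 2), so an adjusted p from them, here and below, passes for many genes. With the GC trend of each library removed it was -0.05. The pseudogene RANP1 moved with RAN across libraries, at 13.3 and 38.9 FPKM in the controls and 12.5 and 15.1 FPKM with GLUP, and reads shared between them may have been split by the counting.

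RCC1 (ENSG00000180198, GRCh37 chr1:28832455-28865812, plus strand), the chromatin-bound exchange factor that makes RanGTP, was a low member with the opposite direction to RANBP1. It stood at 2.37 and 1.31 FPKM in the controls and at 4.05 and 3.30 FPKM with GLUP, so the groups did not overlap and GLUP was higher. Its log2 fold change was 0.74 (SE 0.31, 95% interval -0.017 to 1.49, 1.09 relative to all genes), with an adjusted p of 0.163 in limma with Benjamini-Hochberg adjustment. Leaving out control replicate 1 gave 1.01 (adjusted p = 0.0201 in limma), leaving out control replicate 2 gave 0.47 (0.200), leaving out GLUP replicate 1 or 2 gave 0.62 or 0.85 (0.651 or 0.550), and removing the GC trend gave 0.82. RCC1 shares its locus and strand with SNHG3, a small nucleolar RNA host gene, which stood at 8.18 and 14.2 FPKM in the controls and 7.83 and 6.96 FPKM with GLUP, that is, in the other direction, and reads in shared exons could have gone to either gene.

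RANGAP1 (ENSG00000100401, GRCh37 chr22:41640783-41682191, minus strand), the activator of GTP hydrolysis by Ran, did not separate the groups. It stood at 6.07 and 2.29 FPKM in the controls and at 8.85 and 5.58 FPKM with GLUP. The higher control exceeded the lower GLUP library. The difference on the log2 scale was 0.74 (SE 0.46, 95% interval -0.39 to 1.87, 1.09 relative to all genes; adjusted p = 0.289 in limma with Benjamini-Hochberg adjustment). Again the control pair decided its size, which was 1.29 if control replicate 1 was left out (adjusted p = 0.0209 in limma) and 0.19 if control replicate 2 was (0.663). Leaving out GLUP replicate 1 or 2 gave 0.45 or 1.03, with an adjusted p of 0.779 or 0.553 in limma. RANGAP1 has the highest GC content of the members (59.9%), and with the GC trend removed its log2 fold change was 0.26.

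RANBP2 (ENSG00000153201, GRCh37 chr2:109335938-109402266, plus strand), the large nucleoporin of the cytoplasmic pore filaments that binds Ran and SUMO-modified RANGAP1, had a mean of 0.747 FPKM and was left out by the minimum. It stood at 0.800 and 1.37 FPKM in the controls and at 0.464 and 0.359 FPKM with GLUP, so both GLUP libraries were lower. In the fit over all 28873 genes with a value above 0 its log2 fold change was -0.55 (SE 0.22, 95% interval -1.14 to 0.044, adjusted p = 0.412 in limma with Benjamini-Hochberg adjustment), and the log2 ratio of the mean FPKM was -1.40. The 7 RGPD genes, near-identical copies of part of RANBP2, summed to 0.632 and 0.788 FPKM in the controls and 0.409 and 0.369 FPKM with GLUP, so how reads were shared between them and RANBP2 is uncertain.

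**Figure D2:**
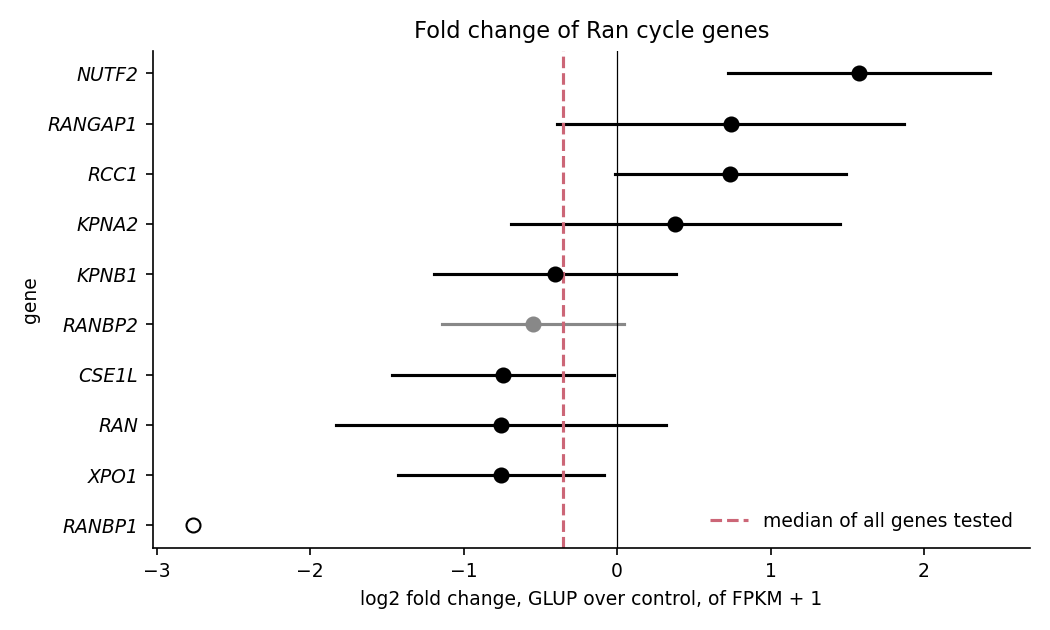
Log2 fold change (GLUP over control, log2(FPKM + 1) scale) of each member with its 95% interval from limma, ordered by value. RANBP1 (open circle, no interval because it was chosen from this comparison) lies at -2.77, RANBP2 (grey) comes from the fit over all genes with a value above 0, and the dashed line marks the median of all genes tested, -0.36, which the intervals of RAN, XPO1, KPNB1, CSE1L, KPNA2 and RANGAP1 include and those of RCC1 and NUTF2 do not.

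The export receptors that bind RanGTP had nearly equal log2 fold changes. XPO1 (ENSG00000082898, GRCh37 chr2:61703167-61765876, minus strand), the main exporter of proteins with a nuclear export signal, stood at 5.67 and 6.29 FPKM in the controls and at 3.13 and 3.13 FPKM with GLUP. CSE1L (ENSG00000124207, GRCh37 chr20:47662783-47713497, plus strand), which returns importin alpha to the cytoplasm, stood at 12.4 and 13.4 FPKM in the controls and at 7.36 and 7.20 FPKM with GLUP. In both genes the replicates lay close together and the groups did not overlap. XPO1 had a log2 fold change of -0.76 (SE 0.27, 95% interval -1.43 to -0.086, -0.40 relative to all genes; adjusted p = 0.133 in limma with Benjamini-Hochberg adjustment). That of CSE1L was -0.74 (SE 0.29, 95% interval -1.46 to -0.023, -0.39 relative to all genes; adjusted p = 0.151 by the same test). Without control replicate 1, where the lone control is assumed to vary like the other group, limma gave an adjusted p of 0.0292 for XPO1 and 0.0256 for CSE1L, at log2 fold changes of -0.82 and -0.80, under a 2-fold change. Neither passed in the other 3 fits that left out a library, where the adjusted p in limma ran from 0.0814 to 0.632 for XPO1 and from 0.0703 to 0.654 for CSE1L. Their transcripts have GC contents of 37.7% and 39.2%, in the lowest quintile, whose median log2 fold change was -0.78. With the GC trend removed, XPO1 stood at 0.03, with its sign turned, and CSE1L at -0.0052.

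The importins differed from each other. KPNB1 (ENSG00000108424, GRCh37 chr17:45726842-45762871, plus strand), importin beta, which carries cargo through the pore, stood at 16.8 and 16.5 FPKM in the controls and at 10.7 and 14.2 FPKM with GLUP. Both GLUP libraries lay below both controls, with a log2 fold change of -0.40 (SE 0.32, 95% interval -1.19 to 0.38; adjusted p = 0.391 in limma with Benjamini-Hochberg adjustment) that was -0.05 relative to all genes and 0.06 with the GC trend removed. KPNA2 (ENSG00000182481, GRCh37 chr17:66031752-66043480, plus strand), the importin alpha that reads classical nuclear localization signals, stood at 284.2 and 135.9 FPKM in the controls and at 255.8 FPKM in each GLUP library. The GLUP libraries fell between the controls, so the direction depended on the control taken. The log2 fold change of KPNA2 was 0.38 (SE 0.43, 95% interval -0.69 to 1.45, 0.73 relative to all genes; adjusted p = 0.553 in limma with Benjamini-Hochberg adjustment), and leaving out control replicate 2 or 1 gave -0.15 or 0.91 (adjusted p = 0.534 or 0.0113 in limma, against 0.846 or 0.841 without GLUP replicate 1 or 2). With the GC trend removed it was 1.09, and 98.3% of the genes in its GC quintile, the lowest, had a log2 fold change at or below its own.

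NUTF2 (ENSG00000102898, GRCh37 chr16:67880785-67906470, plus strand), which binds RanGDP and returns it to the nucleus, had the highest log2 fold change of the members. It stood at 16.1 and 12.8 FPKM in the controls and at 52.2 and 38.4 FPKM with GLUP. Both GLUP libraries lay more than 2-fold above the higher control. In limma the log2 fold change was 1.58 (SE 0.35, 95% interval 0.73 to 2.43, 1.93 relative to all genes), but after Benjamini-Hochberg adjustment over all genes limma gave an adjusted p of 0.10. It had the smallest unadjusted p of the 8 other members tested (0.00418, limma). Without control replicate 1 or control replicate 2, limma gave log2 fold changes of 1.73 and 1.42 with adjusted p of 0.00535 and 0.0279, whereas without GLUP replicate 1 or 2 they were 1.36 and 1.79 with adjusted p of 0.579 and 0.525. With the GC trend removed the value was 1.77, and 97.3% of the genes in its GC quintile had a log2 fold change at or below its own. CENPT, which encodes a centromere protein and overlaps NUTF2 on the opposite strand, stood at 0.270 and 0.440 FPKM in the controls and 1.18 and 0.456 FPKM with GLUP, far under NUTF2 in every library.

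Counted over the 9 members tested, 5 had both GLUP libraries below both controls (RANBP1, RAN, XPO1, KPNB1 and CSE1L), against 49.7% of all genes tested. For RCC1 and NUTF2 both GLUP libraries were above both controls, against 17.5% of all genes tested, and RANGAP1 and KPNA2 overlapped. Passing the minimum of 1 FPKM depends on the mean over all 4 libraries, and these counts describe the 9 members and are no test of them. The 8 members other than RANBP1 had a median log2 fold change of -0.01, which was 0.34 above the median of all genes, and split into 4 higher and 4 lower. Centring each library on its median left 3 members below and 4 above, and removing the GC trend left 1 below, RANBP1. Both settings shift the values of all genes, not of the members alone. The shares of all genes under them were not worked out, so these counts have no share beside them.

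**Figure D3:**
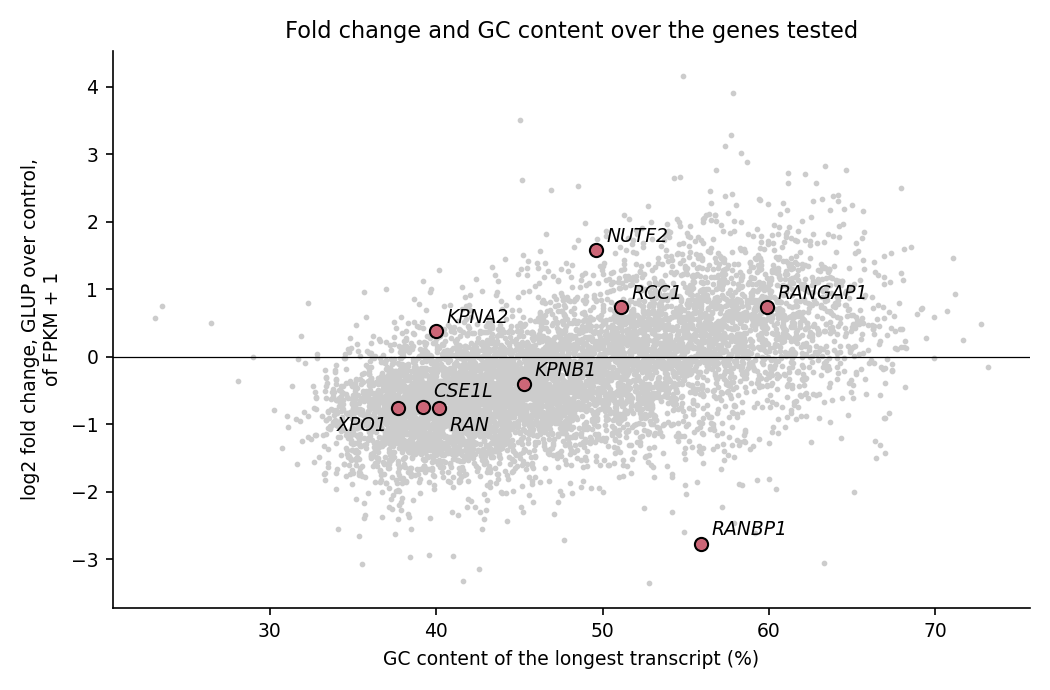
Log2 fold change (GLUP over control, log2(FPKM + 1) scale) against the GC content of the longest transcript for the genes tested (grey) and the 9 members tested (red). XPO1, CSE1L, RAN and KPNB1 lie within the grey cloud at their GC content, whereas RANBP1 at 55.9% GC lies at -2.77, under nearly all genes of like GC content, and NUTF2 at 49.6% GC lies at 1.58, towards its upper edge.

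Because a ratio of genes within a library does not depend on how libraries are scaled, RANBP1 was set against each other member in every library. These ratios describe the gene that was chosen and carry no test. They are not corrected for GC content, with which fold changes moved. RANBP1 over RAN was 0.786 and 0.336 in the controls and 0.139 and 0.113 with GLUP, so RANBP1 lay under the GTPase in all 4 libraries and furthest under it with GLUP. RANBP1 over RANGAP1, its partner in GTP hydrolysis, was 62.2 and 148.6 in the controls and 5.84 and 9.33 with GLUP. Over RCC1, the factor at the other end of the gradient, the ratio was 159.1 and 259.0 in the controls and 12.8 and 15.8 with GLUP. In every one of these ratios the lower control library exceeded the higher GLUP library.

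The ratio of RANBP1 to NUTF2 changed most among the 9, from 23.5 and 26.6 in the controls to 0.991 and 1.36 with GLUP, a 21.6-fold difference between the group means on the log scale. The differences for RCC1, RANGAP1 and KPNA2 were 14.3-fold, 13.0-fold and 8.99-fold. Those for KPNB1, RAN, CSE1L and XPO1 were 5.12-fold, 4.09-fold, 3.91-fold and 3.62-fold, and RANBP2 had the smallest, 2.70-fold. For no member did RANBP1 keep in a GLUP library the proportion it had in a control library. This follows largely from the fall of RANBP1 itself, the gene chosen from this comparison, and is no result about the other members. RANBP2 came closest, with a gap of 0.78 on the log2 scale between its lower control and its higher GLUP ratio.

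**Figure D4:**
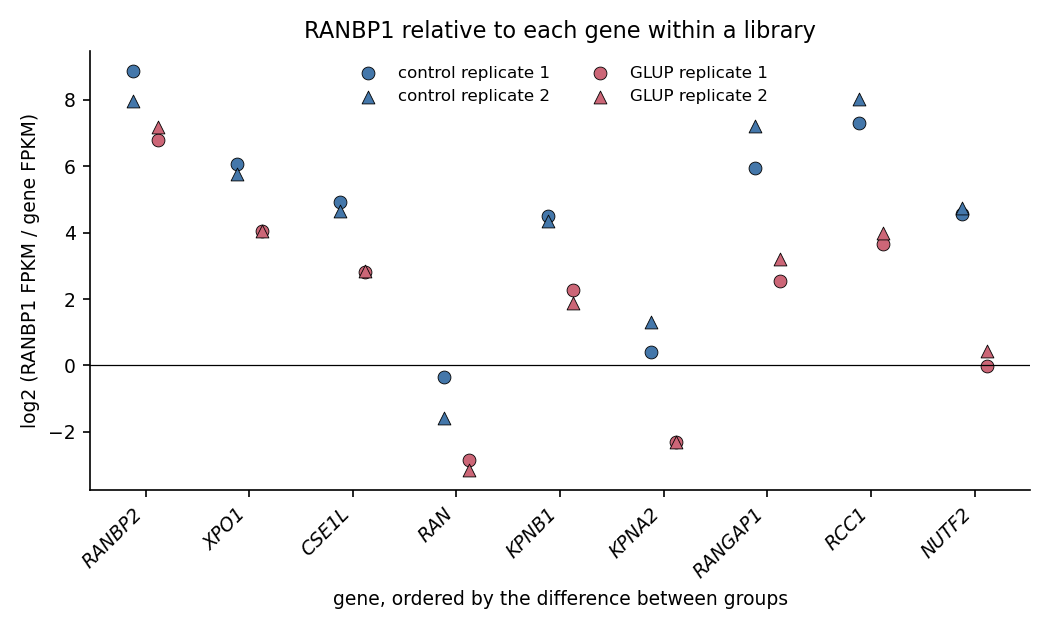
Log2 ratio of RANBP1 FPKM to the FPKM of each other member within a library, ordered by the difference between groups, with control libraries in blue and GLUP libraries in red. Every GLUP point lies under both control points of its gene, by 0.78 at the closest for RANBP2 and by 4.11 for NUTF2. RANBP1 was chosen from this comparison, so the gaps largely restate its own fall.

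The order of levels, per kilobase and so comparable between genes, changed accordingly. In the controls RAN was above RANBP1, RANBP1 above KPNA2 and KPNA2 above KPNB1 without overlap of their libraries. NUTF2 overlapped CSE1L below KPNB1, and of XPO1, RANGAP1, RCC1 and RANBP2 each overlapped the next. With GLUP, KPNA2 stood above RANBP1, whose libraries (51.7 and 52.1 FPKM) now lay within those of NUTF2 (38.4 to 52.2 FPKM). KPNB1 followed without overlap, CSE1L and RANGAP1 overlapped, and RCC1, XPO1 and RANBP2 came last in that order, each separate from the next.

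The genes nearest to RANBP1 in pattern were not Ran cycle genes. Likeness was measured as the Euclidean distance between log2(FPKM + 1) values over the 4 libraries, after each gene's mean was subtracted, and with 4 libraries in 2 groups it mainly ranks the size of the difference. The 5 nearest were PHOSPHO2, EID1, CLPTM1L, MED7 and NOG, at distances of 0.222, 0.311, 0.377, 0.384 and 0.43. PHOSPHO2, a phosphatase gene, stood at 10.3 and 8.87 FPKM in the controls and at 0.791 and 0.822 FPKM with GLUP. MED7, a Mediator subunit gene, stood at 38.6 and 32.8 FPKM in the controls and at 6.15 and 5.81 FPKM with GLUP. Among the members the nearest was XPO1, at rank 1818 of the genes tested, followed by CSE1L at 1857, RAN at 2584 and KPNB1 at 3446, and NUTF2 came at rank 7402 of 7588.

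The wider transport machinery and its surroundings were described from 9 lists of 91 genes, of which 61 were tested. The lists include the spindle factors and 4 neighbours of RANBP1 on 22q11 (2 tested), which were listed for their position. Of the 61 genes tested, 30 had both GLUP libraries below both controls (49.2%, against 49.7% of all genes tested) and 13 had both above (21.3%, against 17.5%). None was called by adjusted p and fold change, against 0.0264% of all genes tested. None had a log2 fold change at or below that of RANBP1, against 0.119% of all genes tested, RANBP1 included. With shares this low, finding none among 61 genes says little about them. Their median log2 fold change was -0.21, against -0.36 over all genes tested.

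Of all genes tested, 49.7% lay below both controls and 17.5% above, beside which the counts here are read. Among the transport receptors, 3 of 5 tested importin beta genes lay below both controls and 1 above. IPO4, an importin for histones among others, had the highest log2 fold change of that list (0.66, adjusted p = 0.199 in limma with Benjamini-Hochberg adjustment) and IPO5 the lowest (-0.58). The median of the list was -0.22, or 0.13 above that of all genes. Of the importin alpha genes, 2 of 3 tested lay below, with KPNA3 lowest at -0.83 and KPNA6, at 2.30 and 1.96 FPKM in the controls and 2.14 and 2.09 FPKM with GLUP, at -0.01. The median of that list was -0.80, or -0.45 relative to all genes. Of the exportins, 1 of 4 tested lay below and 1 above, with XPO6, the exporter of actin, at 0.57 and RANBP17 at -0.75, and the median was -0.21.

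Of the 12 other Ran binding genes, 3 were tested. Of these, 1 lay below both controls and none above, against 49.7% and 17.5% of all genes tested. The gene below was RANBP9, at a log2 fold change of -0.94. RANBP3, a cofactor of XPO1, stood at 1.09 and 1.94 FPKM in the controls and 1.65 and 1.15 FPKM with GLUP, a log2 fold change of -0.05 with overlapping groups. RANGRF, a small Ran-binding protein gene, had a log2 fold change of 0.30, again with overlapping groups. The other 9, among them the 7 RGPD genes, were under the minimum mean and were not tested.

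Nucleoporins build the pore itself, and 12 of the 23 tested lay below both controls and 4 above, against 49.7% and 17.5% of all genes tested. Their median log2 fold change was -0.26, or 0.10 relative to all genes, a sign that turned with the filter and without control replicate 1 (-0.029). NUP42, a nucleoporin of the cytoplasmic face that serves mRNA export, was the lowest. It stood at 28.2 and 30.3 FPKM in the controls and at 13.1 and 10.4 FPKM with GLUP (log2 fold change -1.26, SE 0.32, adjusted p = 0.10 in limma with Benjamini-Hochberg adjustment). AAAS was the highest, at 0.97 (adjusted p = 0.224 by the same test), with control replicate 2 at 1.05 FPKM far under control replicate 1 at 4.47 FPKM. NUP62, in the central channel, had a log2 fold change of -0.26, and NUP50, which helps release importin cargo, had 0.09. NUP153 was under the minimum mean and was not tested, at 0.938 and 0.700 FPKM in the controls and 0.648 and 0.321 FPKM with GLUP.

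Of the SUMO pathway genes acting on RANGAP1, 5 were tested, and the median log2 fold change was 0.14, or 0.50 relative to all genes. Of the 5, 2 lay below both controls and 1 above, against 49.7% and 17.5% of all genes tested, and 2 overlapped. UBA2, a subunit of the SUMO-activating enzyme that was named after its values were seen, was among those below, at 6.02 and 15.5 FPKM in the controls and 4.95 and 3.95 FPKM with GLUP (log2 fold change -0.99, adjusted p = 0.198 in limma with Benjamini-Hochberg adjustment). SAE1, the other subunit of that enzyme, stood at 11.7 and 4.71 FPKM in the controls and at 15.3 and 13.9 FPKM with GLUP. Both GLUP libraries lay above both controls, and control replicate 2 was well under control replicate 1. SAE1 had the highest log2 fold change of that list, 0.88 (SE 0.45, adjusted p = 0.223 in limma with Benjamini-Hochberg adjustment).

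The mRNA export genes do not use Ran and serve as a comparison within nuclear transport. All 11 were tested, and 5 lay below both controls and 4 above, against 49.7% and 17.5% of all genes tested. The median was 0.02, or 0.37 relative to all genes. NXT1, the partner of the export receptor NXF1 and a relative of NUTF2, stood at 38.7 and 10.0 FPKM in the controls and at 5.78 and 7.97 FPKM with GLUP, with control replicate 2 close to the GLUP pair and a log2 fold change of -1.42 (adjusted p = 0.181 in limma with Benjamini-Hochberg adjustment). THOC6, of the THO complex, was the highest, at 4.78 and 1.20 FPKM in the controls and 10.6 and 10.8 FPKM with GLUP (log2 fold change 1.72, SE 0.49, adjusted p = 0.106 by the same test). NUTF2 and NXT1 thus stood on opposite sides of the controls.

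Of the 5 spindle factors that RanGTP releases from importins, 4 lay below both controls and 1 above, against 49.7% and 17.5% of all genes tested. NUSAP1, a microtubule-bundling protein gene, stood at 73.4 and 129.7 FPKM in the controls and at 36.3 and 36.2 FPKM with GLUP (log2 fold change -1.41, adjusted p = 0.104 in limma with Benjamini-Hochberg adjustment). KIFC1, a minus-end kinesin gene, went the other way, at 1.45 and 1.23 FPKM in the controls and at 5.35 and 4.37 FPKM with GLUP (log2 fold change 1.32, SE 0.26, adjusted p = 0.10 by the same test). TPX2, the activator of Aurora A at the spindle, stood at 13.8 and 11.9 FPKM in the controls and at 9.48 and 8.29 FPKM with GLUP, a log2 fold change of -0.49. The list median was -0.49, or -0.13 relative to all genes. The sum of proliferation markers given above, which is not relative to all genes, was lower too, and its part in the list median was not tested.

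**Figure D5:**
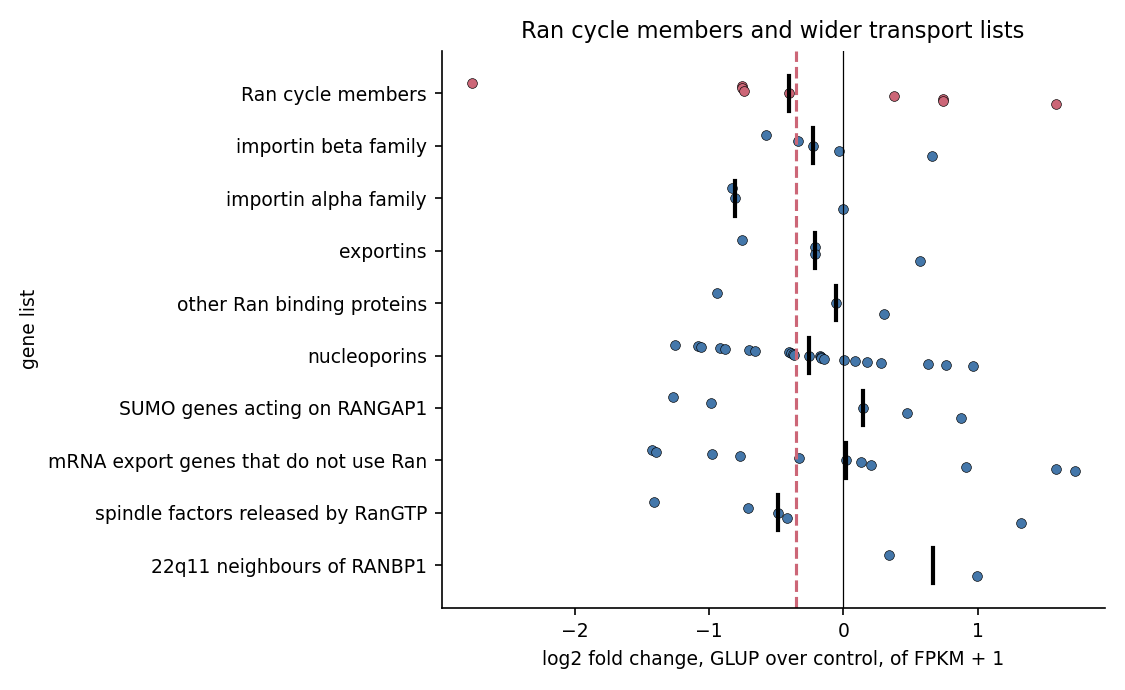
Log2 fold change (GLUP over control, log2(FPKM + 1) scale) of each tested gene of the Ran cycle (red) and of the 9 wider lists (blue), with black bars at the list medians and a dashed line at the median of all genes tested (-0.36). RANBP1 at -2.77, chosen from this comparison, lies under nearly all genes tested and under every gene of the wider lists. NXT1 at -1.42 is the lowest gene of those lists, and most lists spread to both sides of the dashed line.

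The start regions of the members were searched for the TEAD motif, CATTCC or its reverse complement GGAATG, because GLUP was built to act on TEAD4, and for the E-box CACGTG, which is its own reverse complement and is bound by MYC among other factors. Windows from 250 bases before to 50 after the start site were taken from RefSeq on GRCh38.p14, both strands were searched, and no match of one motif overlapped a match of the other. The windows table held 8 of the 10 members in 12 windows, without RANBP1 and KPNB1. The TEAD motif was found for RCC1 (2 matches in 1 of its windows), KPNA2 and CSE1L, and 16.7% of all 27305 genes with windows had a match. The E-box was found for RCC1, XPO1 and RAN, against 8.77% of all genes. The members that carry the TEAD motif are shown with 17 bases on each side, in the direction of the gene, with the motif in capitals. RCC1 has its matches at positions -211 and -60 from the start site (chr1:28505815-28505854 and chr1:28505966-28506005, plus strand).
RCC1, distal: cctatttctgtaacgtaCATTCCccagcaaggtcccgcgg
RCC1, proximal: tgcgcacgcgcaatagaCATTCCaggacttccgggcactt
KPNA2 (chr17:68035666-68035705, plus strand): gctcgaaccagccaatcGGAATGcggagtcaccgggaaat
CSE1L (chr20:49046233-49046272, plus strand): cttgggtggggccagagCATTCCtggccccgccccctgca
These 3 genes did not share a direction, with log2 fold changes of 0.74 for RCC1, 0.38 for KPNA2 and -0.74 for CSE1L. The E-box windows are shown for XPO1 and RAN, the members with log2 fold changes of -0.76 each.
XPO1 (chr2:61537109-61537148, minus strand): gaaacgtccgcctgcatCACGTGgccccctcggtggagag
RAN (chr12:130871947-130871986, plus strand): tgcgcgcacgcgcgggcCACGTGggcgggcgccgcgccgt
RCC1, which also carries an E-box in its other window (chr1:28518019-28518058, plus strand), had the opposite direction. A match is a run of letters and no measure of binding in these cells.
RCC1, other window: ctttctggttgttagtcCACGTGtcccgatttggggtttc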

How the data were processed

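RNA-seq libraries of HGC-27 cells, 2 with GLUP and 2 control, were used. The authors deposited FPKM values, one row per gene, in a single table with 62492 rows, which were summed by gene identifier to 62443 genes. The submitters' processing notes list HISAT2, Cufflinks, RSEM and GRCh38.p10 without roles, whereas the row identifiers have the form of GENCODE annotation lifted to GRCh37, so the build behind the FPKM values is uncertain. Symbols (99.55% of identifiers), positions, transcript GC content and overlaps were taken from the GENCODE annotation lifted to GRCh37 and may differ from the release the authors used.

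Values were taken as log2(FPKM + 1). The 7588 genes averaging 1 FPKM or more were fitted in R 4.3.3 with limma 3.58.1 and a mean-variance trend. P-values were adjusted over all of them by Benjamini-Hochberg, and calls needed an adjusted p under 0.05 together with a change of over 2-fold. The fit was also run on simulated data with independent noise in each gene and no GC trend, a setting unlike these libraries. That run does not show how the fit handles the GC trend. The members and lists were chosen with earlier results of these data known, so no list was tested and RANBP1 has no p-value. From each list the highest and the lowest gene, and genes with set roles, were named, and genes most like RANBP1 or overlapping a member were named by rule. SNHG3, CENPT and RANP1 fall under the overlap and copy rule. A gene that this rule would name is not reported here.

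Alternatives covered the pseudocount (0.1), the filter (any value above 0, or averages of 5 FPKM or more), the scaling (median centring or quantile normalization), a block for the replicate number, removal of each library's GC trend (lowess, span 0.3), no mean-variance trend, the ratio of mean FPKM and leaving out each library. Libraries sum to different FPKM totals, and without their depth the precision from counting is unknown.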

Additional observations from a re-analysis of the deposited data

How the results depend on the processing

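The log2 fold change of RANBP1, -2.77, was -2.42 with centring on medians, -2.61 with quantile normalization and -3.04 with the GC trend removed, and kept its direction under every alternative run. The replicate block, the filters and leaving out the mean-variance trend cannot change the log2 fold change of a gene. Members with both GLUP libraries above both controls numbered 1 at averages of 5 FPKM or more and 4 with centring or quantile normalization, against 2, and 3 with the GC trend removed. Those with both below numbered 3 with centring or quantile normalization, 1 with the GC trend removed and 6 over all genes with a value above 0, against 5. The shares of all genes above or below both controls are given only for the fit without these alternatives. The counts under the alternatives therefore have no share beside them. XPO1 and KPNB1 reversed to 0.0312 and 0.0603 with the GC trend removed, with or without the replicate block, and KPNA2 ranged from -0.15 to 0.91 over the fits that left out a library. The median of the wider lists, 0.14 relative to all genes, reversed to -0.14 over all genes with a value above 0 and to -0.058 at averages of 5 FPKM or more. Over all genes with a value above 0, the importin beta, exportin and SUMO lists reversed to -0.11, -0.20 and -0.011. The nucleoporin list, 0.10 relative to all genes, also turned, to -0.17 over those genes, -0.11 at averages of 5 FPKM or more and -0.029 without control replicate 1. With the GC trend removed, alone or with the block, the other Ran binding list reversed to -0.50 and the mRNA export list to -0.018, and the latter was -0.12 at averages of 5 FPKM or more.

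Genes called over the whole table numbered 2 (1457 by unadjusted p with the same fold change). They numbered 1 with a pseudocount of 0.1, centring or quantile normalization, and 16 with the replicate block and the GC trend removed. In limma none was called over all genes with a value above 0 (0, 1293 unadjusted), at averages of 5 FPKM or more (0, 890), with the GC trend removed (0, 700) or without the mean-variance trend (0, 1461). Leaving out a library gave 4 to 2710 calls, the highest without control replicate 1, where the spread came from the GLUP pair alone and the lone control is assumed to vary like it. The cause of the other differences was not tested. Across the genes tested, the difference between replicates 1 and 2 of the controls correlated at 0.126 with that of the GLUP libraries. Same-numbered libraries share only a number. Each number holds a control and a GLUP library, so the replicate block could not change a log2 fold change. The block was not run for the counts of members above or below both controls, which use no fit. With 2 libraries a group and unknown depth, a difference as large as the control pair's own spread could not be resolved.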
